A study of Homo sapiens with 8 samples.

Results

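The genes described here are 10 genes tied to YAP and TAZ, the transcriptional coactivators controlled by the Hippo pathway, in triple-negative breast cancer cells treated with Acetalax. They comprise the secreted matricellular genes CYR61 (now CCN1) and CTGF (now CCN2), the ankyrin repeat gene ANKRD1, the Hippo components AMOTL1, AMOTL2, LATS2 and AJUBA, the receptor gene AXL, and the factors themselves, YAP1 and WWTR1 (which encodes TAZ). They were chosen by symbol, with their Acetalax and chronic exposure ratios in these same libraries already known, so those ratios are given as descriptions without a test. The count table held 55679 gene identifiers, each of the 10 symbols occurred once, and all 10 genes averaged 1 CPM or more (read counts scaled to a common library total of 1000000), as did 25.2% of all identifiers (14014 genes).

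Acetalax (oxyphenisatin acetate) is a former laxative with activity against some cancer cells. MDA-MB468 and BT549 are established triple-negative breast cancer cell lines, and both were used as parental cells and as chronic exposure (CE) cells, which are resistant clones selected in stepwise rising Acetalax and kept at up to 40 μmol/L. Each of these 4 backgrounds was sequenced as a control without drug and after 6 hours with Acetalax at 1 μmol/L, and CE cells had been free of drug for 2 weeks beforehand. This gave 8 groups of 1 polyA-selected RNA-seq library each: MDA-MB468 parental control, MDA-MB468 parental Acetalax, MDA-MB468 CE control, MDA-MB468 CE Acetalax, and the same 4 for BT549. No group had a replicate, all libraries carried 42261122 to 54241728 counts on genes, and a ratio between a pair of libraries therefore compares those libraries. Levels below are CPM scaled by trimmed mean of M values (TMM), and a log2 ratio of 1 is a 2-fold difference. Intervals are 95% exact binomial intervals that cover counting error only.

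In the Hippo pathway, the kinases STK3 and STK4 with the scaffold SAV1 activate the kinases LATS1 and LATS2, which phosphorylate YAP and TAZ and keep them out of the nucleus. Unphosphorylated YAP and TAZ enter the nucleus, bind TEAD DNA-binding proteins and switch on target genes, of which CYR61, CTGF and ANKRD1 are the ones most used as readouts. LATS2, AMOTL2 and AJUBA encode regulators of the pathway and are themselves known targets, which forms feedback loops, and cell shape, attachment, and tension of the actin cytoskeleton are known inputs.

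The line labels were checked against cell type markers. The summed level of 7 epithelial markers was 5426 to 7757 CPM in the MDA-MB468 libraries, all 7 at 1 CPM or more in every library, against 8.453 to 91.67 CPM in BT549. The 6 mesenchymal markers summed to 3684 to 5827 CPM in BT549 and to 14.42 to 56.77 CPM in MDA-MB468. The 4 blood or endothelial markers in the table were each below 1 CPM in every library, with a sum of at most 0.9141 CPM. The mitochondrial share of counts ranged from 4.0% to 10.04% and was lower in the Acetalax library of all 4 pairs. Its part in the results was not tested. Bulk libraries cannot tell fewer cells of a kind from less RNA per cell.

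In the hg19 build of the counts, CYR61 is at chr1:86046444-86049645 (plus strand), CTGF at chr6:132269316-132272513 (minus) and ANKRD1 at chr10:92671853-92681033 (minus). AMOTL1 is at chr11:94439597-94609918 (plus), AMOTL2 at chr3:134074716-134094321 (minus), LATS2 at chr13:21547171-21635686 (minus) and AJUBA at chr14:23440383-23451851 (minus). AXL is at chr19:41725108-41767671 (plus), YAP1 at chr11:101981192-102104154 (plus) and WWTR1 at chr3:149235022-149454501 (minus). Counts cover the exons of each whole gene, and CYR61 and CTGF are the most compact of the 10, each spanning 3.2 kb.

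The promoter sequences of 9 of the 10 genes were matched in RefSeq (GRCh38.p14), with 13 start sites. CYR61 had no entry. Windows of 250 bases before to 50 bases after each start were searched for GGAATG on both strands, the core that TEAD proteins bind, and for TGANTCA, the AP-1 motif, which often lies beside it. The TEAD core was found in 7 of 13 promoters, covering 7 of 9 genes, and in 14.0% of all 35116 promoters in the table. It occurred at least 2 times in 2 of the 13 (CTGF and ANKRD1), against 1.37% of all promoters, and 3 times only in CTGF among these genes, against 0.128%. AP-1 letters were found in ANKRD1 alone among the 13, against 7.71% of all promoters. AMOTL1 and WWTR1 held neither motif in this window. The 3 promoters below are shown because CTGF and ANKRD1 hold repeated matches and LATS2 holds a match just after its start. The strand is that of the gene (minus for all 3), 5′ to 3′, from 250 bases before to 20 bases after the start, and capitals mark the motif matches.
CTGF: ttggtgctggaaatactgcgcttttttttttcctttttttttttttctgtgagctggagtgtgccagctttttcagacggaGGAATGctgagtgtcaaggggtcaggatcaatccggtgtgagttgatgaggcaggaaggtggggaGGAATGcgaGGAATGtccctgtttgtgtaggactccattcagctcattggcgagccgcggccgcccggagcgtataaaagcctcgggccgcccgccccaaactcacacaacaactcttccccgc
ANKRD1: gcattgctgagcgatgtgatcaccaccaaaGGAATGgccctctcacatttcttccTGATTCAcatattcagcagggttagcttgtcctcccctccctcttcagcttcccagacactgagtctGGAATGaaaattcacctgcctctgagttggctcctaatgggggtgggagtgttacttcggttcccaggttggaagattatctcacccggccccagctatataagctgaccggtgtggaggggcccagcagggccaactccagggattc
LATS2: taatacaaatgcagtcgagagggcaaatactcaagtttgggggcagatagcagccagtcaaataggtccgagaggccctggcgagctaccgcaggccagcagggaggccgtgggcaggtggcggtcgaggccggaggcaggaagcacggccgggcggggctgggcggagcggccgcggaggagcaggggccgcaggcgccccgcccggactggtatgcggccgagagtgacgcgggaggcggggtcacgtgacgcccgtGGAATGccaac
In CTGF, at chr6:131951353-131951622, the cores begin 169, 104 and 95 bases before the start, and the latter pair lie next to each other with 3 bases between them. In ANKRD1, at chr10:90921068-90921337, cores begin 220 and 128 bases before the start, with the AP-1 match at 195. In LATS2, at chr13:21061567-21061836, the core begins at base 10 after the start. Other matches lay 162 bases before the start of YAP1, and, in only 1 of 2 annotated starts each, 69 bases before that of AMOTL2, 59 before that of AJUBA and 212 before that of AXL. A match describes letters in this window and is not evidence of binding.

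**Figure D1:**
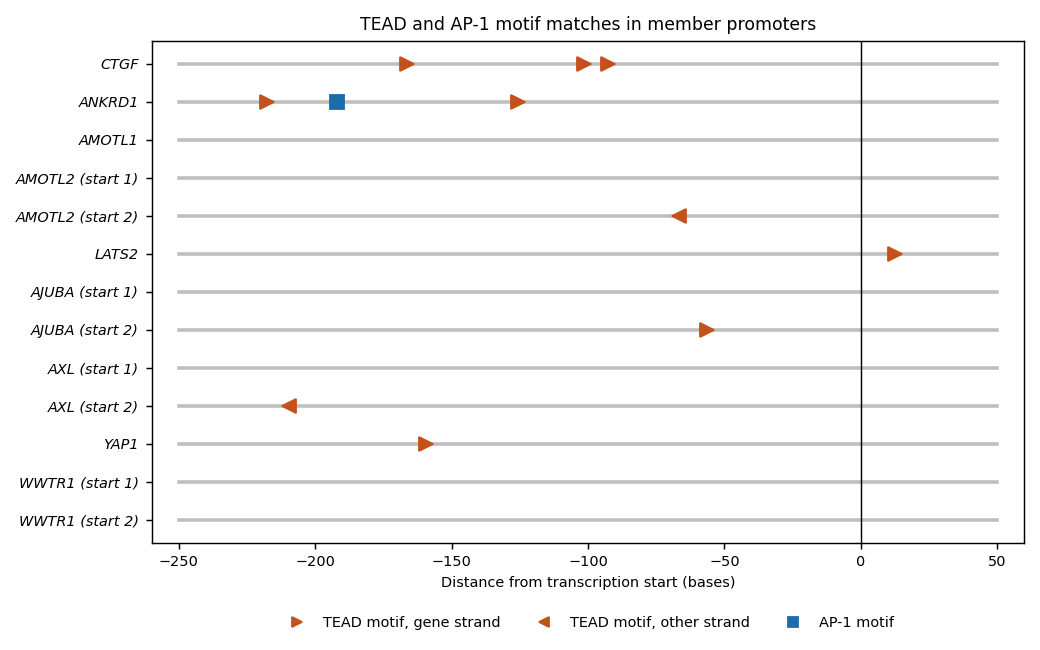
Positions of TEAD core (GGAATG, orange triangles pointing along the strand) and AP-1 (TGANTCA, blue square) matches in the 13 promoters, by distance in bases from the start site. CTGF has 3 TEAD cores, ANKRD1 has 2 with an AP-1 match between them, and the others have 1 or none.

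CYR61, CTGF and LATS2 were higher after Acetalax in all 4 backgrounds, ANKRD1 in the 3 where it was detected, AMOTL2, AJUBA and AXL in both MDA-MB468 pairs by at least 1.76-fold, and AMOTL1 was higher in MDA-MB468 and lower in BT549. The question behind these comparisons was which genes respond to the drug within hours in sensitive cells and in cells made resistant. Of 14014 genes, 18.7% were higher in all 4 pairs by any amount and 0.243% by at least 2-fold, which among the 10 genes was reached by CYR61. In parental MDA-MB468 cells, 7 of 10 genes were at least 2-fold higher (background 6.15% higher and 3.92% lower by that fold). In MDA-MB468 CE cells, 3 of 10 were (background 3.38% and 2.84%). In parental BT549 cells, 3 of the 9 genes with a ratio were (background 3.27% and 3.35%). In BT549 CE cells 4 of 10 were, ANKRD1 against 3 counts in place of 0 (background 6.51% and 11.0%). None of the 10 was 2-fold lower in any Acetalax pair. Since these ratios chose the genes, nothing is read from the shares. The median log2 ratio of the genes was 1.25, 0.66, −0.04 and 0.41 in the order above, while that of all genes was −0.04 to 0.00.

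CYR61, a secreted matrix-associated protein that binds integrins, had the highest level of the 10 genes per exon length in every library. In MDA-MB468 it stood at 278.6 CPM in the parental control, 1152 with Acetalax, 265.9 in the CE control and 708.3 with Acetalax. In BT549 the values were 1130, 2990, 835.4 and 4081 CPM. Every treated library lay above every control library of its line, and the treated CE library was the lower treated one in MDA-MB468 and the higher in BT549. The log2 ratios were 2.05 (interval 2.02 to 2.08) in parental MDA-MB468, 1.41 in MDA-MB468 CE, 1.40 in parental BT549 and 2.29 in BT549 CE.

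CTGF, a relative of CYR61 and a classical TEAD target, followed with a wider spread. Its levels were 136.6, 336.9, 65.02 and 91.65 CPM in MDA-MB468 (parental control, parental Acetalax, CE control, CE Acetalax) and 491, 1359, 303.4 and 1892 CPM in BT549. In MDA-MB468, the treated CE library was below the parental control, whereas in BT549 it was the highest of all 8. The log2 ratio was 0.50 (interval 0.43 to 0.56) in MDA-MB468 CE, against 1.30 in its parental cells, 1.47 in parental BT549 and 2.64 in BT549 CE, the latter a 6.24-fold difference.

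LATS2, a kinase that phosphorylates YAP and TAZ and so restrains them, was the other gene higher in each pair. It stood at 24.86, 67.15, 25.58 and 35.24 CPM in MDA-MB468 and at 57.89, 138.5, 65.53 and 215.7 CPM in BT549, in the same order. Treated and control libraries did not overlap within either line. The log2 ratios were 1.43, 0.46, 1.26 and 1.72 for parental MDA-MB468, MDA-MB468 CE, parental BT549 and BT549 CE.

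ANKRD1, which encodes an ankyrin repeat protein of muscle and stressed cells, was present in MDA-MB468 and nearly absent in BT549. In MDA-MB468 it was counted 351 times (6.855 CPM) in the parental control, 1393 times (29.1 CPM) with Acetalax, 210 times (4.4 CPM) in the CE control and 760 times (15.46 CPM) with Acetalax. In BT549 it had 0 counts in both parental libraries and in the CE control, and 16 counts (0.3588 CPM) in the treated CE library. A count of 0 there allows up to 3 counts, or 0.056 to 0.071 CPM. The log2 ratios in MDA-MB468 were 2.08 (interval 1.92 to 2.26) and 1.81 (1.59 to 2.04). In BT549 CE the 16 counts were 6.41-fold above the limit that 0 counts allow, and in parental BT549 no ratio can be given. That fold leaves out counting error in the 16 counts.

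**Figure D2:**
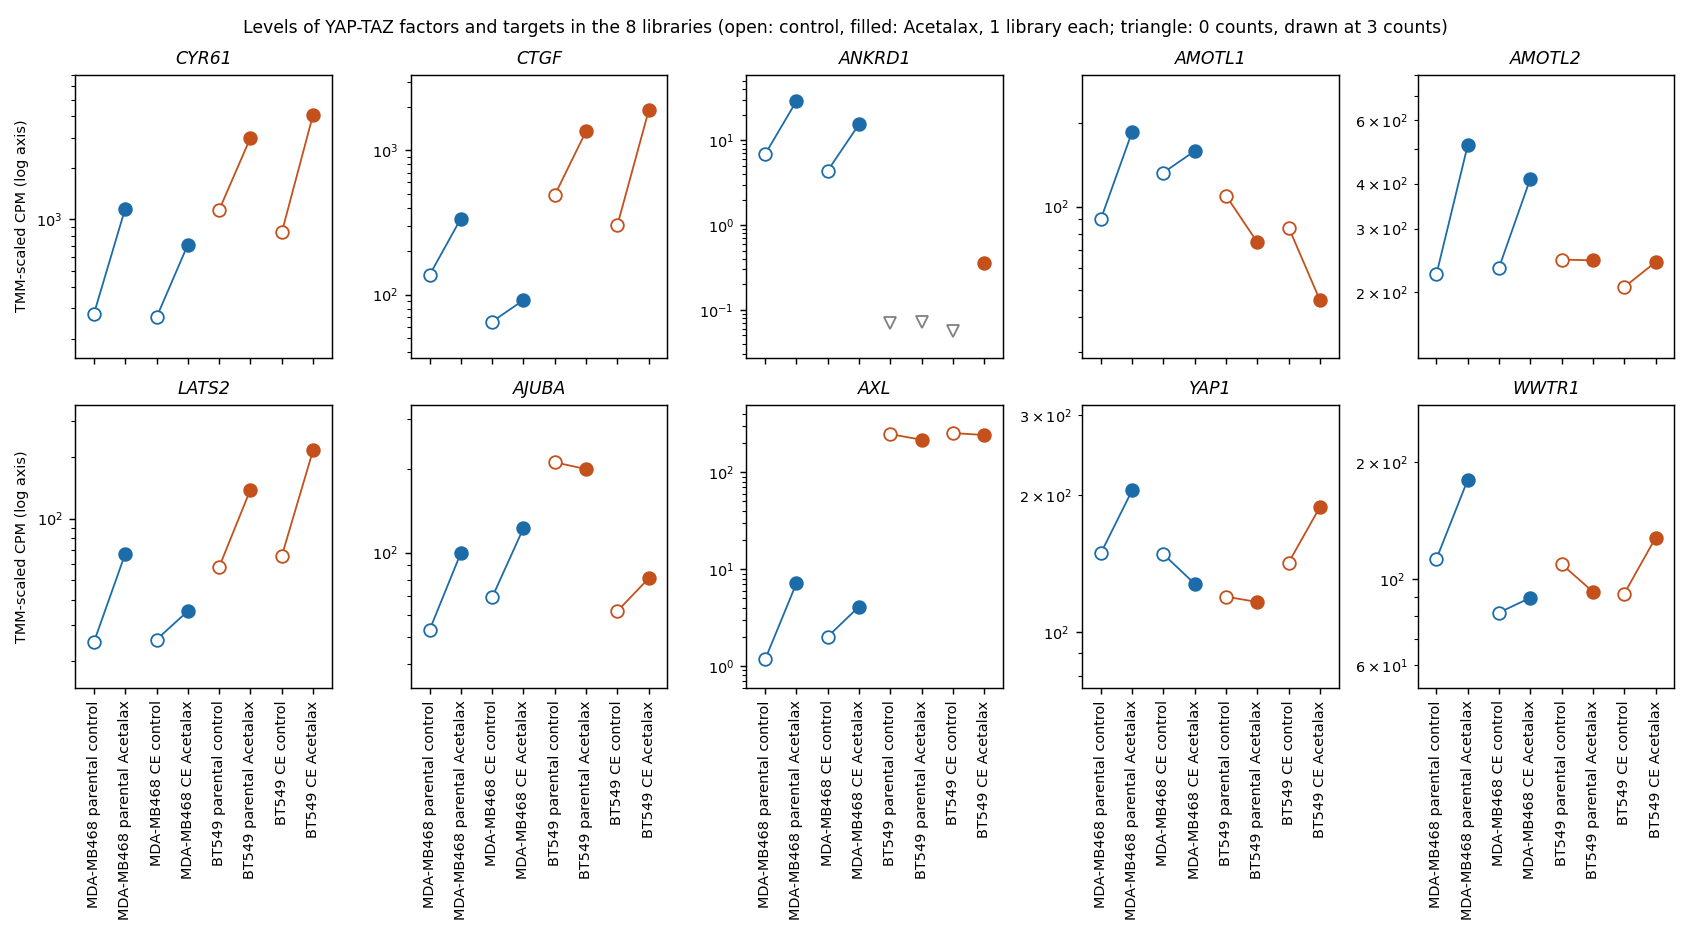
TMM-scaled CPM of the 10 genes (log axes, scaled separately for each gene) in the 8 libraries, 1 library per point, with a line joining the control (open) and Acetalax (filled) library of each pair; triangles mark 0 counts, drawn at 3 counts. CYR61, CTGF and LATS2 climb in all 4 pairs, and ANKRD1 and AXL separate the lines.

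Of the angiomotin-like genes, AMOTL1 went opposite ways in the lines and AMOTL2 was higher mainly in MDA-MB468. AMOTL1 and AMOTL2 encode junction scaffolds that bind YAP and hold it in the cytoplasm. AMOTL1 was 90.05 CPM without and 185.8 CPM with Acetalax in parental MDA-MB468, and 132.6 and 158.5 CPM in MDA-MB468 CE. In BT549 it was 109.5 and 74.35 CPM in parental cells and 84.1 and 46.01 CPM in CE cells, so that each treated library was below both controls. The log2 ratios were 1.05 and 0.26 in MDA-MB468 and −0.56 and −0.87 in BT549, with intervals that all exclude 0. AMOTL2 was 224.1 and 511.2 CPM in parental MDA-MB468 and 233.9 and 412.8 CPM in MDA-MB468 CE, with log2 ratios of 1.19 and 0.82. In BT549 the 4 values lay between 206.5 and 246 CPM and the log2 ratios were −0.01 (interval −0.05 to 0.03) and 0.23, so treated and control libraries overlapped.

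AJUBA, a LIM protein that binds LATS kinases and limits their action, was also higher in both MDA-MB468 pairs. It was 52.87 and 99.72 CPM in parental MDA-MB468 and 69.21 and 122.4 CPM in MDA-MB468 CE, with log2 ratios of 0.92 and 0.82. In BT549 it was 210.5 and 199 CPM in parental and 61.84 and 80.97 CPM in CE cells, with log2 ratios of −0.08 and 0.39. Both parental BT549 libraries thus lay above both BT549 CE libraries, and the cause was not tested.

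AXL, a receptor tyrosine kinase for GAS6 that marks mesenchymal-like cancer cells, was low in MDA-MB468 and abundant in BT549. MDA-MB468 had 60 counts (1.172 CPM) and 343 counts (7.166 CPM) in parental cells and 96 (2.012 CPM) and 202 (4.11 CPM) in CE cells, without and with drug. The log2 ratios were 2.60 (interval 2.21 to 3.03) and 1.03 (0.67 to 1.40). An antisense gene overlapping AXL was counted up to 47 times in a library, and the strand setting of the counting is not given in the sources used here, so the low AXL counts in MDA-MB468 are uncertain. In BT549 the 4 libraries lay between 216.1 and 253.6 CPM, with log2 ratios of −0.19 and −0.07.

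The factors themselves stayed within 2-fold in every pair. YAP1 was 149.2, 205.1, 148.5 and 127.8 CPM in MDA-MB468 and 119.8, 116.6, 142.4 and 188.6 CPM in BT549, in the order parental control, parental Acetalax, CE control, CE Acetalax. The log2 ratios were 0.46, −0.22, −0.04 and 0.41, of which that in parental BT549 had an interval including 0. WWTR1 was 112.5, 179.7, 81.85 and 89.39 CPM in MDA-MB468 and 109, 92.58, 91.63 and 127.5 CPM in BT549, with log2 ratios of 0.68, 0.13, −0.24 and 0.48. In parental BT549 cells, where CYR61 and CTGF were over 2-fold higher with Acetalax, WWTR1 was lower and YAP1 did not differ beyond counting error. These are RNA levels, and they say nothing of where the proteins were or how far they were phosphorylated.

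Per exon length, CYR61 was followed by CTGF in all BT549 libraries and in parental MDA-MB468, and by AMOTL2 in MDA-MB468 CE. In FPKM, here CPM divided by exon length in kilobases, CYR61 went from 75.35 to 311.6 in parental MDA-MB468 and from 225.9 to 1103 in BT549 CE. YAP1 lay between 18.47 and 32.51 FPKM and WWTR1 between 9.798 and 21.51 FPKM over all 8 libraries, with YAP1 above WWTR1 in each. The lowest level was that of AXL in MDA-MB468 (0.2282 to 1.396 FPKM) and of ANKRD1 in BT549. In the parental MDA-MB468 control, neighbours AJUBA (8.983 FPKM) and AMOTL1 (8.978 FPKM) could not be told apart, and with 1 library a group no order between neighbours can be tested against replicate spread.

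**Figure D3:**
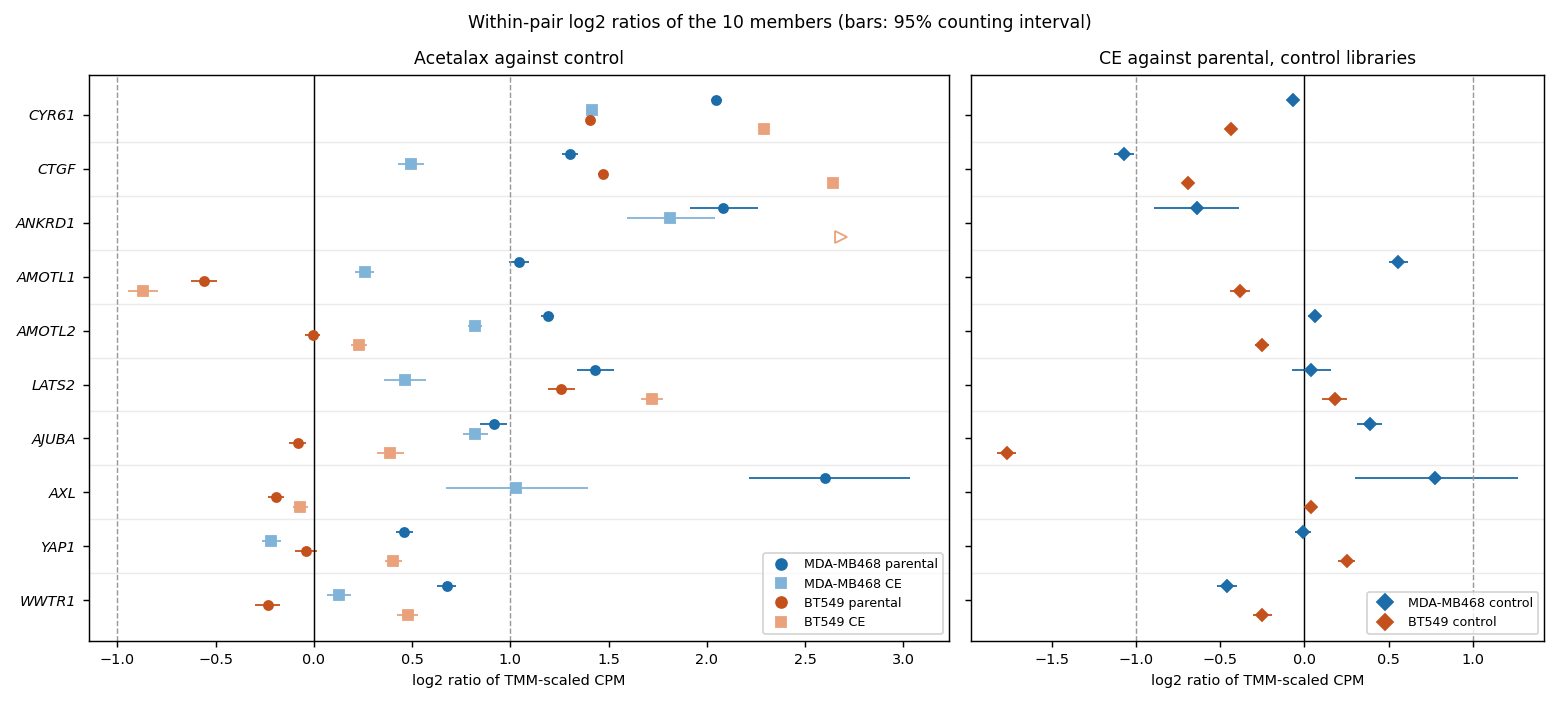
Log2 ratios of TMM-scaled CPM for the 10 genes, Acetalax against control in 4 backgrounds (left) and CE against parental control (right), with 95% counting intervals; the open triangle is a lower bound and dashed lines mark 2-fold. On the left CYR61 lies beyond 2-fold in all 4 pairs, and AMOTL1 is on the right of 0 in MDA-MB468 and on the left in BT549.

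Some ratios lay close to the 2-fold line. In parental MDA-MB468, AMOTL1 (1.05) was just inside and AJUBA (0.92) just outside, and in MDA-MB468 CE these were AXL (1.03) and AJUBA (0.82). In BT549, LATS2 was the gene nearest to the line from inside (1.26 and 1.72) and AMOTL1 from outside (−0.56 and −0.87). With library totals in place of TMM the median ratio of all genes in BT549 CE was −0.21 in place of −0.04, and in parental MDA-MB468 −0.10 in place of −0.01, and ratios are to be read relative to these shifts.

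In drug-free cells, the CE lines differed 2-fold from their parents at few of these genes, and smaller differences beyond counting error occurred in both lines. This comparison shares its control libraries with the Acetalax pairs, so the values of both are not independent. CTGF was lower in CE cells of both lines, with log2 ratios of −1.07 (interval −1.13 to −1.01) in MDA-MB468 and −0.69 in BT549. AJUBA was 3.40-fold lower in BT549 CE (log2 ratio −1.77, interval −1.83 to −1.71) but higher in MDA-MB468 CE (0.39). Cell type markers moved with this comparison. In the BT549 controls, 3 of the 4 epithelial markers that reached 1 CPM were over 2-fold higher in CE cells (KRT8 1.23 to 34.79 CPM, KRT18 6.546 to 48.5 CPM), and the list summed to 11.14 CPM in parental and 91.67 CPM in CE cells. Of the 6 mesenchymal markers, 2 were over 2-fold higher there (SPARC 430.3 to 3488 CPM) and 1 lower (FN1 1598 to 599.6 CPM). In the MDA-MB468 controls, none of 7 epithelial markers differed 2-fold, and both mesenchymal markers that reached 1 CPM were lower in CE cells. The part of these markers in the CE ratios was not tested. CTGF in MDA-MB468 and AJUBA in BT549 were the only 2-fold CE differences among the 10 genes, both lower, where 2.95% of all genes were 2-fold higher and 3.01% lower in MDA-MB468 CE and 9.67% and 6.34% in BT549 CE.

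The remaining CE ratios were smaller. CYR61 was at −0.07 and −0.44 in MDA-MB468 and BT549, and ANKRD1 at −0.64 (interval −0.89 to −0.39) in MDA-MB468. AMOTL1 was at 0.56 and −0.38, AMOTL2 at 0.06 and −0.25, and LATS2 at 0.04 and 0.18. AXL was at 0.78 in MDA-MB468, on 96 against 60 counts, and at 0.04 in BT549. YAP1 was at −0.01 and 0.25, while WWTR1 was lower in both lines, at −0.46 and −0.25. Nearest to the line from outside were AXL in MDA-MB468 and CTGF in BT549.

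Between the lines, AXL, CYR61, CTGF and LATS2 were higher in BT549 and ANKRD1 was higher in MDA-MB468 in all 4 matched pairs of libraries (the same state and treatment in both lines). The levels in all 8 libraries were among the values the genes were chosen with, so these differences too are given without a p-value. AXL was 30.1 to 209-fold higher in the BT549 library of each matched pair (fitted log2 fold change 6.40, SE 0.54 over the 4 pairs). CYR61 was higher by 1.95 on the log2 scale (SE 0.20), with 2.60 to 5.76-fold in the matched pairs. CTGF was higher by 2.63 (SE 0.45), with 3.59-fold in parental controls and 20.6-fold in treated CE cells, and LATS2 by 1.61 (SE 0.28). ANKRD1 was 98.4-fold higher in MDA-MB468 in parental controls, taken against the limit that 0 counts allow. It was 41.8-fold higher (interval 26.4 to 75.8) between the treated CE libraries.

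The other 5 genes differed less relative to the spread between pairs. The fitted log2 fold change was −0.82 (SE 0.34) for AMOTL1 and −0.41 (SE 0.22) for AMOTL2. AJUBA had 0.61 (SE 0.44), with a 3.98-fold higher level in BT549 among parental controls and 1.12-fold lower among CE controls. YAP1 and WWTR1 had −0.10 (SE 0.22) and −0.02 (SE 0.24). Of the 19693 genes in its fit, edgeR called 56.8% between the lines at an adjusted p under 0.05, 27.3% higher and 29.5% lower in BT549. Calls for the 10 genes are not given, because the genes were chosen with these levels known.

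The rest of the pathway was described through 4 lists of genes that are not among the 10: 29 Hippo kinases and scaffolds, 8 TEAD and VGLL genes, 16 further YAP-TAZ targets and 13 relatives, with 65 genes in all and 64 tested. For these, Acetalax was compared with control over the 4 backgrounds in edgeR (quasi-likelihood fit, p-values adjusted by Benjamini and Hochberg's method over all genes tested). Its p-values measure the spread between these cultures, and the parental and CE pairs of a line are related. It called 12 genes higher and 1 lower, where it called 2.72% of all genes higher and 2.27% lower. The lists were drawn up with earlier results of these libraries known. Without the parental MDA-MB468 pair, edgeR called none of the list genes (15 at an unadjusted p under 0.05) and none of all genes (3491 at an unadjusted p under 0.05).

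Among the further targets, 5 of 16 were called higher, and the median log2 fold change was 0.37 against −0.04 for all genes tested. GADD45A, a growth arrest and stress gene, rose by 1.84 (SE 0.25, edgeR adjusted p = 0.0295). Its levels were 79.31, 359.2, 158.7 and 407.7 CPM in MDA-MB468 and 156.4, 342, 85.05 and 560.1 CPM in BT549 (parental control, parental Acetalax, CE control, CE Acetalax), all treated values above all controls. TGFB2, a TGF-beta ligand, rose by 1.62 (SE 0.24, edgeR adjusted p = 0.0318). It stood at 92.85, 384.6, 111.3 and 244.7 CPM in MDA-MB468 and at 18.13, 34.59, 11.94 and 63.82 CPM in BT549. ASAP1, a GTPase-activating protein of focal adhesions, rose by 1.09 (edgeR adjusted p = 0.0318) and FJX1 by 1.01 (edgeR adjusted p = 0.0376).

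F3, tissue factor, the cell-surface starter of blood clotting, was called at 2.54 (SE 0.56, edgeR adjusted p = 0.0465). Its level was 45.68 CPM in the parental MDA-MB468 control and 844.9 CPM with Acetalax, and 120.3 and 563.2 CPM in CE cells. In BT549 it never exceeded 0.7814 CPM, with log2 ratios of 0.31 (interval −0.46 to 1.11) in parental and 1.34 (0.41 to 2.39) in CE cells, on at most 33 counts. The call was lost in 5 of 8 alternatives, among them each fit with a pair left out, of either line. The treated parental MDA-MB468 value was the highest of the 8.

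Of the Hippo kinases and scaffolds, 4 of 29 were called higher and none lower, with a median of 0.11. Genes without a call went both ways, with STK4, SAV1, WWC2 and SLMAP above 0 and MAP4K2 and MAP4K3 below 0 in every pair. Among these, only STK4 had intervals that excluded 0 in all 4 pairs. FRMD6, a membrane-associated upstream activator, rose by 1.09 (SE 0.15, edgeR adjusted p = 0.0291), RASSF1, a scaffold of the STK kinases, by 0.96 (SE 0.12, edgeR adjusted p = 0.0286), NF2 (merlin) by 0.70 (SE 0.13, edgeR adjusted p = 0.0379) and the kinase STK3 by 0.55 (SE 0.12, edgeR adjusted p = 0.0492). FRMD6 went from 27.01 to 64.64 CPM in parental MDA-MB468 and from 109 to 323.7 CPM in BT549 CE. NF2 was 235.1 CPM in the parental BT549 control and 68.54 CPM in the CE control. STK3 lost its call in 6 of 8 alternatives and NF2 in 3. All 4 called genes had positive ratios in each pair, and all are known to act upstream of LATS kinases.

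Of the TEAD and VGLL genes, 2 of 8 were called higher and none lower, with a median of 0.13. TEAD1, a DNA-binding partner of YAP, rose by 0.71 (SE 0.16, edgeR adjusted p = 0.0499), from 84.8 to 209.5 CPM in parental MDA-MB468 and from 124.2 to 228.3 CPM in BT549 CE. The call of TEAD1 was lost in 6 of 8 alternatives. Of the other TEAD genes, named after their values were seen, TEAD2 (−0.33) and TEAD3 (−0.27) were lower in every pair, without a call. TEAD4 (0.35) was higher in every pair, also without a call. For each of these genes the interval in parental BT549 included 0. VGLL3, a cofactor of TEAD proteins, was called at 1.09 (SE 0.22, edgeR adjusted p = 0.0424). VGLL3 lost its call in 3 of 8 alternatives, and was 70.61 to 202.3 CPM in BT549 and at most 2.152 CPM in MDA-MB468. VGLL1, chosen after its values were seen, had the opposite distribution, 206.9 to 297.7 CPM in MDA-MB468 and at most 0.02368 CPM in BT549.

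Of the 12 relatives tested, WTIP, a LIM protein of the AJUBA family, rose by 1.09 (SE 0.21, edgeR adjusted p = 0.0385), and AMOT, the angiomotin itself, fell by 1.08 (SE 0.19, edgeR adjusted p = 0.0376). The median of this list was 0.10. AMOT was 246.5 and 129.9 CPM without and with Acetalax in parental MDA-MB468 and 229.4 and 129.9 CPM in MDA-MB468 CE. In BT549 it was 8.797 and 5.115 CPM in parental and 5.895 and 1.525 CPM in CE cells. AMOT was thus lower in every pair, and its relative AMOTL1 in the BT549 pairs.

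**Figure D4:**
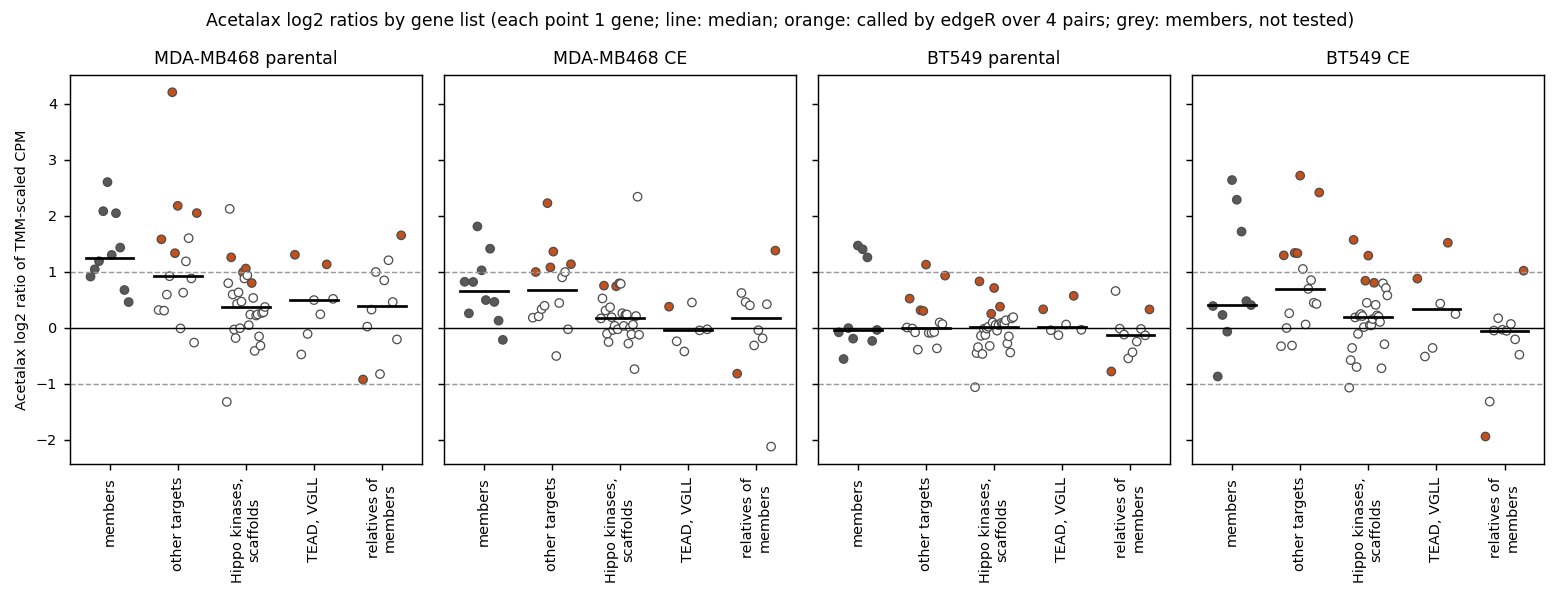
Acetalax log2 ratios of TMM-scaled CPM in each background for the 10 genes (grey, not tested) and the 4 other gene lists, 1 point per gene averaging 1 CPM or more and counted in both libraries; lines are medians, dashed lines mark 2-fold, and orange points were called by edgeR over the 4 pairs. The further targets have the highest median of the 4 other lists in parental MDA-MB468 (0.92), MDA-MB468 CE (0.67) and BT549 CE (0.70), but not in parental BT549 (0.01).

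CE against parental cells gave no call among the 64 list genes in edgeR, with 10 at an unadjusted p under 0.05, while DESeq2 called 5, WISP2 higher in CE cells and LATS1, NOV, NT5E and SAV1 lower (named after their values were seen). EdgeR called 0.0609% of all genes higher and 0.0559% lower in this contrast. By the rule for naming genes where none is called, those named are the 3 per list whose smallest Acetalax ratio, with all 4 of the same sign, was largest: FRMD6, RASSF1 and NF2, then VGLL3, TEAD1 and TEAD3, then GADD45A, TGFB2 and ASAP1, and then AMOT, WTIP and WISP2. Their CE log2 ratios between controls (MDA-MB468, then BT549) included −0.02 and −1.78 for NF2, 1.00 and −0.88 for GADD45A, and 0.26 and −0.60 for TGFB2. TEAD3 had −0.27 and 0.13, and WISP2, a relative of CTGF, 1.49 and 2.99 at levels of at most 8.581 CPM. FRMD6 had 0.56 and −0.33 and ASAP1 0.12 and −0.19. RASSF1 had −0.17 and −0.22, TEAD1 0.22 and 0.12, WTIP 0.24 and 0.77, and AMOT −0.10 and −0.58. The ratio was thus positive in MDA-MB468 and negative in BT549 for GADD45A, TGFB2, FRMD6 and ASAP1, beyond counting error in both. For RASSF1, TEAD1, WTIP, AMOT and WISP2 the ratios had the same sign in both lines, also beyond counting error in both. For TEAD3 the signs were opposite, but the BT549 interval included 0 (−0.01 to 0.27). VGLL3 went from 50 counts to 0 in MDA-MB468 and was at −0.02 in BT549. The limit that 0 counts allow was 15.5-fold lower, leaving out counting error in the 50 counts.

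Genes whose ratios were most like those of CYR61, CTGF and AXL were found by Euclidean distance over the 6 log2 ratios among the 11108 genes averaging 5 CPM or more. For CYR61 they were TGFB2 (distance 0.67), HDAC9 (0.77), CCRN4L (0.79), MAP2K3 (0.83) and RELT (0.86). TGFB2 had Acetalax ratios of 2.05, 1.14, 0.93 and 2.42 where CYR61 had 2.05, 1.41, 1.40 and 2.29. For CTGF they were ZSWIM4 (0.72), P2RY11 (0.89), MXD1 (0.93), SLC19A2 (1.03) and IRS2 (1.06), and for AXL they were ADM (0.77), FGFRL1 (0.83), KIAA1644 (0.93), LY6K (0.97) and MYO1E (0.97). CTGF was not among the nearest 5 of CYR61. The 6 ratios share control libraries, and the distances are descriptions.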

How the data were processed

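RNA was measured by polyA-selected, directional RNA-seq in 8 libraries, 1 for each of 8 conditions. The authors aligned reads to hg19 with STAR and counted reads by gene through its GeneCounts mode, and the deposited values are raw counts per gene. The submitters' processing notes give STAR version 2.7.11b, while the methods of the paper name a different version. The annotation release and the strand column used are not given in the sources used here. Of 58154 table lines, repeats of 1392 identifiers were dropped, which left 55679 identifiers. The 3 identifiers repeated with other counts were kept as first listed, and 28 symbols turned into dates were restored.

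From these counts, TMM-scaled CPM, FPKM over merged exons and within-pair log2 ratios (pseudocount 0.5 counts) were computed with exact binomial intervals (SciPy 1.17.1, pandas 2.3.3, Python 3.11.15). Exon lengths came from a GENCODE annotation that may not be the one used for counting. For CYR61 this length (3698 bases) exceeded the gene span given with the counts (3202 bases), so FPKM values are approximate. Background shares use the 14014 genes averaging 1 CPM or more. EdgeR 4.0.16 (R 4.3.3) quasi-likelihood tests used all 8 libraries, an intercept for each matched pair, 3 residual degrees of freedom before moderation and Benjamini-Hochberg adjustment at 0.05 over 19693 genes that passed its low-count filter, and were checked on simulated data. Depth was 42261122 to 54241728 counts per library. Alternatives were other scalings, other pseudocounts, no low-count filter, DESeq2 1.42.0, and leaving out each pair.

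Genes were named as follows: all 10 genes, the called genes of each list (at most 6), where none was called the 3 with the largest smallest Acetalax ratio of a shared sign, and the 5 nearest profiles of CYR61, CTGF and AXL. The 10 genes and the lists were chosen with earlier results of these data known. Between the lines, fitted fold changes with their SEs, and no calls, are given for the 10 genes. Their levels in all libraries were among the values they were chosen with. P-values measure only the spread between these libraries, which may be technical.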

Additional observations from a re-analysis of the deposited data

Results flagged for a closer look

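The Acetalax response of AMOTL1 and AXL differed between the lines. AMOTL1 went opposite ways, while AXL rose in MDA-MB468 and changed little in BT549 (−0.19 in parental and −0.07 in CE cells). For both genes each BT549 ratio was below 0 and each MDA-MB468 ratio above 0 with TMM scaling. The mean log2 ratio of the BT549 pairs minus that of the MDA-MB468 pairs was −1.37 for AMOTL1 and −1.95 for AXL. These differences were not tested. AXL in BT549 CE was at −0.07 where the median of all genes was −0.04, and with DESeq2 size factors its interval included 0 (−0.03, interval −0.07 to 0.01). In MDA-MB468 the low AXL counts are uncertain, because an antisense gene overlaps AXL and the strand setting of the counting is not given in the sources used here.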

How the results depend on the processing

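With 1 library a condition, members' ratios have no replicate error, and low counts limit AXL in MDA-MB468 and ANKRD1 in BT549. All tests already compare matched pairs of libraries, and the labels give no replicate numbers for a further block. EdgeR called 13 list genes for Acetalax, and 0 to 9 when a pair was left out: 0 without parental MDA-MB468, 6 without BT549 CE, 7 without MDA-MB468 CE and 9 without parental BT549. For CE against parental it called 0, against 2 without a low-count filter (NT5E and WISP2) and 5 with DESeq2. In the line contrast the sign turned for YAP1 (0.11 without the parental Acetalax pair, range over left-out pairs −0.33 to 0.11) and for WWTR1 (0.26 without that pair and 0.005 without the parental control pair, range −0.21 to 0.26). The cause was not tested. Over all genes, Acetalax calls numbered 984 (536 higher), against 3585 unfiltered, 2930 with DESeq2, 1059 (374 higher) with library totals, and 0 to 554 when a pair was left out. CE calls numbered 23, against 446, 1010, 24 and 0 to 10. The share of genes past 2-fold in an Acetalax pair went from 6.22 to 17.5% up to 23.2 to 33.4% with every gene of at least 1 count. The counts of the 10 genes past 2-fold moved by at most 2, to 5 from 7 in parental MDA-MB468 on the log2(FPKM + 1) scale.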

Other observations

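Other genes of the AXL receptor family, chosen after their values were seen and therefore given without a test, also differed in level between the lines. GAS6, an AXL ligand, was 202.4 to 226.5 CPM in BT549 and 9.413 to 30.23 CPM in MDA-MB468. PROS1, a ligand of the family, was 2.699 to 7.31 CPM in BT549 and at most 0.4179 CPM in MDA-MB468. Of the related receptors, TYRO3 was 14.73 to 18.38 CPM in BT549 and 20.74 to 32.01 CPM in MDA-MB468, and MERTK overlapped, with 0.6156 to 1.977 and 1.316 to 2.344 CPM. The lines differed at 56.8% of all genes tested.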
